A study of Mus musculus with 18 samples.

Results

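The transcripts of 5 transcription and chromatin factors that undifferentiated stem cells carry in both the naive and the primed state, POU5F1, SOX2, SALL4, UTF1 and DPPA4, were followed in murine embryonic stem (ES) cells grown on stroma. The 5 genes were chosen by name, and every array probe annotated to one of them was taken: 12 of the 45281 probes, with 4 for DPPA4, 3 for SALL4, 2 each for POU5F1 and SOX2 and 1 for UTF1. The 18 cultures were collected on day 3 in 6 groups of 3 replicates. In 3 groups, ES cells of a murine knock-in line that expresses enhanced green fluorescent protein under the tau promoter were co-cultured with PA6 cells, a murine stromal line (ES/PA6 co-cultures). The other 3 groups were PA6 cells alone (PA6 mono-cultures). All groups were kept in serum-free medium, either with no growth factor added (-GFs), with recombinant FGF2 at 20 ng/ml or with recombinant BMP4 at 10 ng/ml, and the study asked how these factors steer ES cells towards endothelium. An array of a co-culture measured ES-derived and PA6 RNA together. In such mixed RNA, fewer ES-derived cells and less RNA per cell cannot be told apart.

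POU5F1 (OCT4) and SOX2 are DNA-binding proteins that often occupy neighbouring sites and switch on much of the pluripotency programme. SALL4 is a zinc finger factor that binds many of the same enhancers. UTF1 and DPPA4 are proteins bound to chromatin in undifferentiated cells, and UTF1 is a known direct target of POU5F1 and SOX2. Naive cells, which resemble the early epiblast of the blastocyst, and primed cells, which resemble the epiblast after implantation, both express this core. The states differ in other genes, such as KLF4, ESRRB and TBX3 in naive cells and FGF5, OTX2 and POU3F1 in primed cells.

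RefSeq promoters were at hand for 3 of the 5 genes. They are shown because UTF1 and its known regulators POU5F1 and SOX2 are the members whose levels are compared most closely here. Each run holds the 250 bases before the annotated start on the forward strand of assembly GRCm38.p6: chr17:35505782-35506031 for Pou5f1, chr3:34649745-34649994 for Sox2 and chr7:139943606-139943855 for Utf1. Capitals mark letters that match 1 of 5 motifs on either strand: the octamer core ATGCAAA, the SOX core ACAAAG, the GC box GGGCGG, the nuclear receptor half-site AGGTCA and the CCAAT box CCAAT.
Pou5f1: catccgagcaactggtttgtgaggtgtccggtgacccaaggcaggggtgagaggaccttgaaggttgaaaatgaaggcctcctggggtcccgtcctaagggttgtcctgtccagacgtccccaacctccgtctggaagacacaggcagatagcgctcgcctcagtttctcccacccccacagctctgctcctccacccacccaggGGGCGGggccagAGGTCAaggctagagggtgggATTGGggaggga
Sox2: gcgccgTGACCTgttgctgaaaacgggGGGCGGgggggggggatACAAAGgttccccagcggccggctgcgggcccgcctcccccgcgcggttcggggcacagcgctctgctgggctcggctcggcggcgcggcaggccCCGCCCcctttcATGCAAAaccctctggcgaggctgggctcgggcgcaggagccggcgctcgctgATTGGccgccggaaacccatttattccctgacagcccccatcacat
Utf1: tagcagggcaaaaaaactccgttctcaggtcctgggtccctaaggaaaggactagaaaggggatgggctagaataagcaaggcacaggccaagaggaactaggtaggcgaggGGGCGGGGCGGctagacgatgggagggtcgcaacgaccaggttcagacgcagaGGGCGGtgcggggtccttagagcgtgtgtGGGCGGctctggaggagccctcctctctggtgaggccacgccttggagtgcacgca
The Sox2 window held the octamer core, which was found in 4.12% of the 32851 promoters of the table, and the SOX core, found in 16.5%. The Utf1 window held no match but the GC box, at 4 places, the first of which overlaps the second by 1 base. The table holds a second, internal Pou5f1 promoter, not printed, in which the CCAAT box alone was found. The printed Pou5f1 window held 1 GC box, 1 nuclear receptor half-site and 1 CCAAT box. A GC box was present in 32.7% of all promoters, a CCAAT box in 33.8% and a nuclear receptor half-site in 14%. The GC content was 62% for Pou5f1, 72% for Sox2 and 61.6% for Utf1. A match is a description of letters and not a measured binding site. Sequence outside the 250 bases was not searched, so the windows cannot show whether POU5F1 and SOX2 act on Utf1 from elsewhere.

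The arrays of the co-cultures and of the mono-cultures were comparable in signal, with medians between 132.4 and 158.7 and between 115.4 and 148.7 intensity units respectively. A probe was called detected on an array where its deposited detection p-value was under 0.05. The RNA of the stroma was seen in every co-culture: of 14 stromal markers (collagens, DCN, THY1 and others), 12 or 13 were detected per array, and their summed level was 16.52 to 17.07 on the log2 scale against 17.78 to 18.11 in PA6 mono-cultures. Of 10 neural markers, 3 passed the filter on dim probes (NES, HES5 and ZIC1), and their summed log2 level was 8.32 to 11.24 in -GFs co-cultures, 7.85 to 10.78 with FGF2 and 7.52 to 8.43 with BMP4.

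The 5 genes were high in every ES/PA6 co-culture and at background in PA6 mono-cultures, with POU5F1 the exception. Of the 12 probes, 11 passed the filter, and 10 of these were detected on all 9 co-culture arrays. The other, the dimmest DPPA4 probe (ILMN_3076469), was detected on 7. The probe that failed, ILMN_2676148 for SALL4, was detected on 0 of the 18 arrays. All SOX2, SALL4, UTF1 and DPPA4 probes were detected on 0 of the 9 mono-culture arrays. One POU5F1 probe, ILMN_1217100, was detected on all 9 mono-culture arrays, with deposited intensities from 168.1 to 252.9 against 7723 to 11014 in co-cultures, whereas the second, ILMN_1252910, was detected on 0 of 9. A low POU5F1 signal in pure PA6 cells thus rested on 1 of 2 probes, and whether that probe also binds another transcript was not tested.

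In limma's fit across 16446 genes, 1 probe standing for each, all 5 genes were called higher in ES/PA6 than in PA6 cultures in each medium, where called means a Benjamini-Hochberg adjusted p below 0.1 and a log2 fold change beyond 1. Of all genes tested, 19.4% were called higher in -GFs medium, 18.7% with FGF2 and 19% with BMP4. As 4 of the 5 genes passed the filter through the co-cultures alone, their calls had to follow. POU5F1 differed by 6.34 log2 units in -GFs medium, 6.15 with FGF2 and 6.09 with BMP4. Against the lowest signals detected in PA6 cells, SALL4 was at least 112-fold, DPPA4 at least 192-fold, UTF1 at least 56.4-fold and SOX2 at least 17.2-fold higher in -GFs co-cultures. With FGF2 these bounds were 135-fold for SALL4, 167-fold for DPPA4, 35-fold for UTF1 and 24.1-fold for SOX2. With BMP4 they were 152-fold for SALL4, 235-fold for DPPA4, 58.6-fold for UTF1 and 22.8-fold for SOX2.

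**Figure D1:**
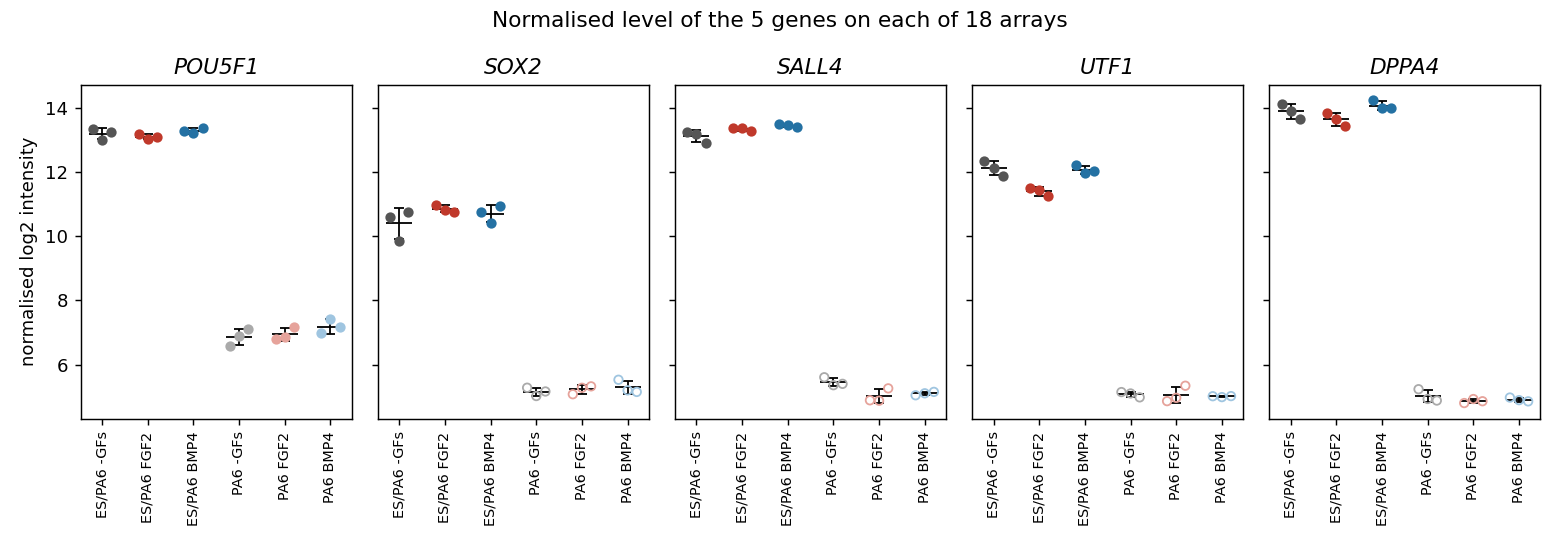
Normalised log2 intensity of the representative probe of each gene on each of the 18 arrays, by group. Filled points are arrays with a detection p under 0.05 and open points are not detected; the line and bars are the mean and SD of 3 replicates. Among the co-cultures UTF1 is lowest with FGF2, and among PA6 mono-cultures POU5F1 alone is detected.

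Within the co-cultures, FGF2 left 4 of the 5 genes without a significant change and went with a lower UTF1. The UTF1 level fell by 0.73 on the log2 scale, to 0.604 of the -GFs level, and the other changes lay between -0.24 for DPPA4 and 0.45 for SOX2. None of the 5 genes (0 of 5) was called at both thresholds in limma's fit, beside 3.34% of all genes. At the adjusted p alone 1 of 5, UTF1, passed, beside 9.05% of all genes, and 2 of 5, UTF1 and SOX2, had an unadjusted p below 0.05, beside 17.8%.

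The UTF1 level on the 3 arrays in -GFs medium was 12.33, 12.13 and 11.89 on the log2 scale. With FGF2 it was 11.51, 11.43 and 11.24, and with BMP4 it was 12.20, 11.98 and 12.02. Every FGF2 array was thus below every array of the other 2 media, while the -GFs and BMP4 arrays overlapped. The deposited intensities had the same order, with 5517, 4341 and 3533 in -GFs medium, 3390, 2845 and 2642 with FGF2 and 4935, 4351 and 3645 with BMP4. The change with FGF2 was -0.73 (SE 0.142, 95% interval -1.03 to -0.43, limma adjusted p = 0.00509). It was -0.83, -0.70 and -0.65 in the 3 replicate sets. Under all 20 alternatives of normalization, filter, probe choice, fit, threshold or left-out array the adjusted p stayed below 0.1, between 0.00103 and 0.0387. Those that moved only a threshold repeat the adjusted p of the main fit. Those of probe choice could not change the level of a gene with 1 probe. UTF1 had a single probe on the array, so no second probe could be set against it.

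POU5F1, which is required for the pluripotent state, had the narrowest range of the 5 genes over the co-cultures. Its level was 13.33, 13.00 and 13.26 in -GFs medium, 13.18, 13.03 and 13.07 with FGF2, and 13.27, 13.20 and 13.37 with BMP4. The 9 values spanned 0.37 log2 units, a range smaller than that of all but 8.21% of the genes tested. The change with FGF2 was -0.10 (95% interval -0.43 to 0.23, limma adjusted p = 0.831), and the -GFs and FGF2 arrays overlapped. The second POU5F1 probe gave 0.08 (limma adjusted p = 0.891 over all probes). Its values in the co-cultures ran more widely, from 12.90 to 13.42, so the narrow span above is that of the first probe.

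SOX2, the usual partner of POU5F1, was the most variable in -GFs medium, at 10.59, 9.86 and 10.75. With FGF2 it was 10.97, 10.83 and 10.76, just above every -GFs array, and with BMP4 it was 10.75, 10.42 and 10.94. The change with FGF2 was 0.45 (SE 0.199, 95% interval 0.03 to 0.87, limma adjusted p = 0.243), and the sets gave 0.37, 0.97 and 0.01. Replicate 2 in -GFs medium was the lowest SOX2 value of the 9 co-cultures. Without it the change with FGF2 was 0.18 (limma adjusted p = 0.718). The second SOX2 probe, ILMN_1248711, was also lowest on that array, at 7.01 against 8.76 and 7.80 on the other two. Its change with FGF2 was 0.77 (limma adjusted p = 0.314 over all probes, and 0.0298 with the replicate number as a block).

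SALL4, which sustains the stem cell programme together with POU5F1, was 13.25, 13.19 and 12.89 in -GFs medium. It was 13.38, 13.36 and 13.28 with FGF2, and 13.48, 13.45 and 13.38 with BMP4. The FGF2 arrays lay above all -GFs arrays, by a small distance: the change was 0.23 (SE 0.128, 95% interval -0.04 to 0.50, limma adjusted p = 0.392). The second detected SALL4 probe did not share it, at -0.04 (limma adjusted p = 0.957 over all probes). Groups that do not overlap were common on these arrays, with 9.86% of all genes higher and 9.43% lower with FGF2 in this way.

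DPPA4, a chromatin protein of early embryonic and stem cells, was at 14.10, 13.91 and 13.64 in -GFs medium, 13.84, 13.66 and 13.44 with FGF2, and 14.24, 13.99 and 13.98 with BMP4. The FGF2 value was below the -GFs value in each replicate set, by -0.26, -0.25 and -0.20, although the groups overlapped, and the mean change of -0.24 did not pass the test (SE 0.143, 95% interval -0.54 to 0.07, limma adjusted p = 0.44). A second DPPA4 probe, ILMN_1248480, gave -0.47 with arrays that did not overlap (limma adjusted p = 0.0965 over all probes). The remaining DPPA4 probes gave -0.18 and -0.10, with limma adjusted p of 0.665 and 0.929.

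**Figure D2:**
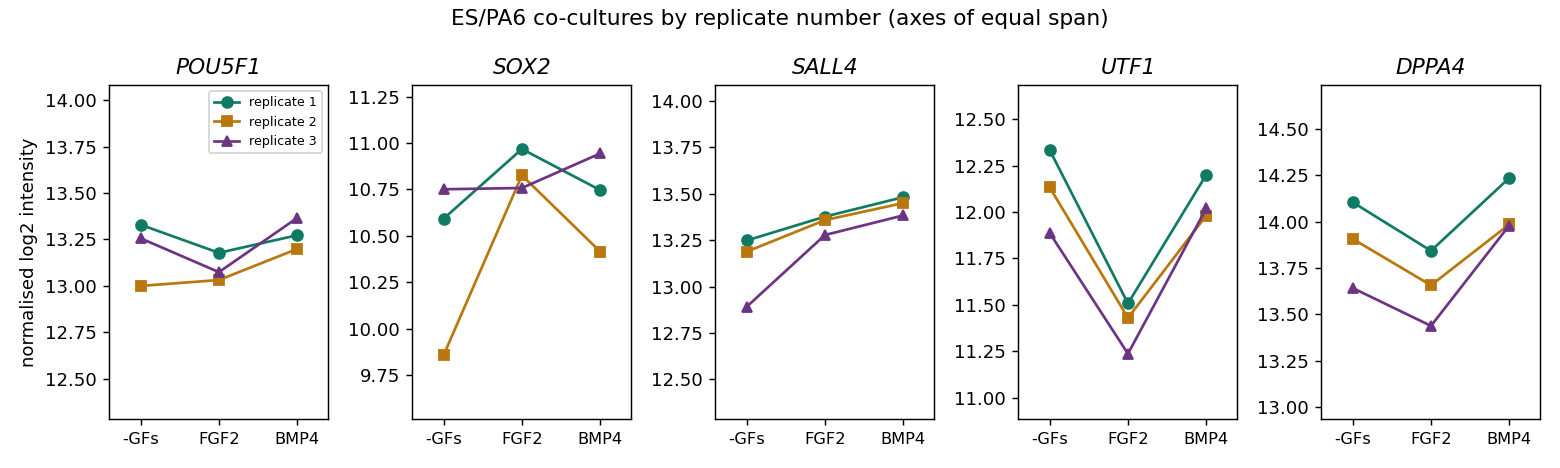
Normalised log2 intensity of each gene in the 9 ES/PA6 co-cultures, with a line for each replicate number across -GFs, FGF2 and BMP4; every panel spans the same log2 range. The 3 UTF1 lines dip at FGF2, those of DPPA4 dip less, the POU5F1 lines are nearly level, and the low SOX2 point in -GFs medium is replicate 2.

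Upon BMP4 no change in the 5 genes passed the test. Their differences from -GFs medium were 0.33 for SALL4, 0.30 for SOX2, 0.18 for DPPA4, 0.08 for POU5F1 and -0.05 for UTF1. Single arrays moved these small values: without -GFs replicate 2 the SOX2 difference was 0.03, and without -GFs replicate 3 the DPPA4 difference was 0.06. None (0 of 5) was called in limma's fit, with or without the threshold on fold change, beside 0.76% of all genes at both thresholds and 1.7% at the adjusted p alone. The limma adjusted p were 0.327 for SALL4, 0.687 for SOX2, 0.764 for DPPA4, 0.935 for POU5F1 and 0.964 for UTF1, and 1 of 5, SALL4, had an unadjusted p below 0.05, beside 10.9% of all genes. The 5 intervals of 95%, at the representative probes, ran from -0.35 at the lowest to 0.72 at the highest, so a change in level by a factor of 2 in either direction was outside every one of them. The second SOX2 probe, ILMN_1248711, gave 0.54 (limma adjusted p = 0.727 over all probes). Its 95% interval of -0.26 to 1.33 did include a change by a factor of 2. The BMP4 arrays of SALL4 were above all its -GFs arrays, as in 6.06% of all genes, while the second SALL4 probe gave 0.03 (limma adjusted p = 0.984 over all probes).

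Set directly against BMP4, FGF2 gave lower UTF1 again. This comparison and the one with -GFs medium share the FGF2 arrays. UTF1 was 0.68 log2 units lower with FGF2 (-0.68, SE 0.142, 95% interval -0.98 to -0.38, limma adjusted p = 0.00978), with -0.69, -0.55 and -0.78 in the 3 sets. DPPA4 differed by -0.42 (SE 0.143, 95% interval -0.72 to -0.12, limma adjusted p = 0.118), with -0.39, -0.33 and -0.54 in the sets and no overlap between the arrays. In 9.1% of all genes the FGF2 arrays lay below the BMP4 arrays in this way, and UTF1, DPPA4, SALL4 and POU5F1 were among them at the representative probe. The second probes of POU5F1 and SALL4 did not share it. They gave -0.08 each, with overlapping arrays (limma adjusted p = 0.877 and 0.902 over all probes). When replicate numbers were fitted as a block, the DPPA4 adjusted p was 0.025, where 14.9% of all genes were below 0.1, and it was below 0.1 in 5 of 20 alternatives. Among the other DPPA4 probes, ILMN_1248480 differed by -0.65 (limma adjusted p = 0.0221 over all probes), and the remaining probes by -0.29 and -0.17, with limma adjusted p of 0.388 and 0.859. POU5F1 differed by -0.18 (limma adjusted p = 0.62), SOX2 by 0.15 (0.793) and SALL4 by -0.10 (0.779). At both thresholds limma called 0 of 5, beside 2.85% of all genes; at the adjusted p alone it called 1 of 5, UTF1, beside 7.48%, and 2 of 5, UTF1 and DPPA4, had an unadjusted p below 0.05, beside 17.4%.

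**Figure D3:**
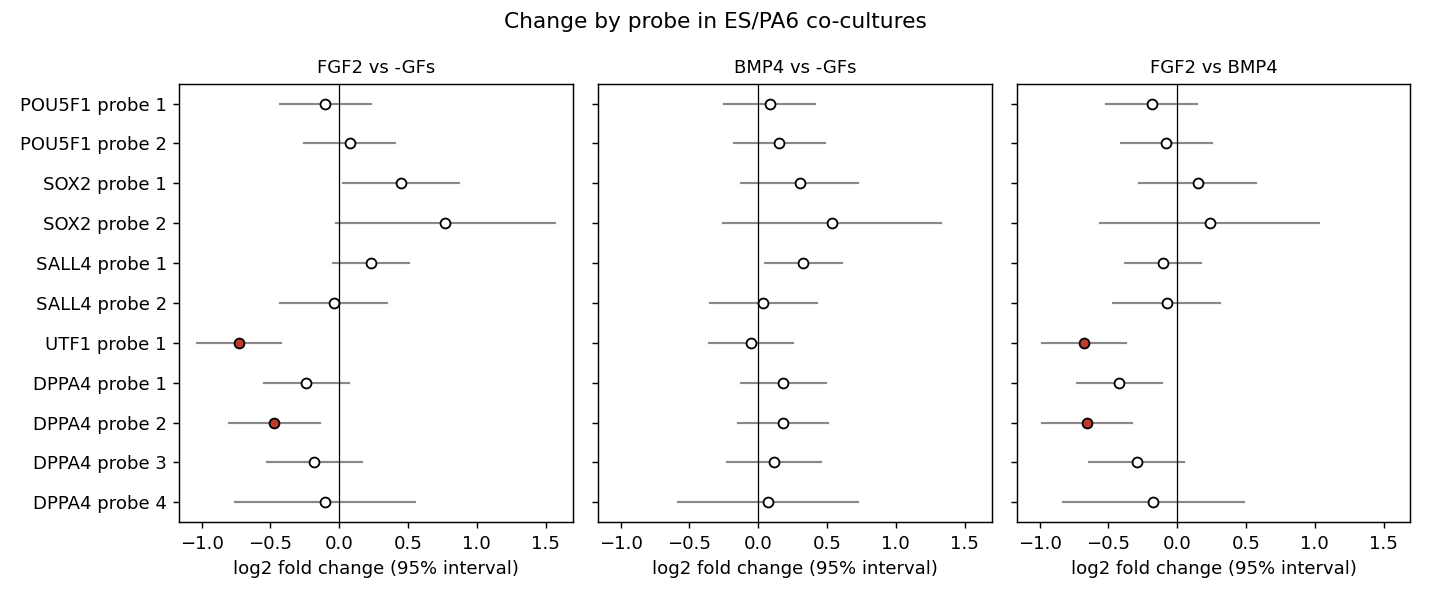
Log2 fold change of each of the 11 probes that passed the filter in the 3 co-culture comparisons, with its 95% interval, from the fit over all kept probes. Red points have a limma adjusted p below 0.1: the UTF1 probe and DPPA4 probe 2 (ILMN_1248480) with FGF2, both against -GFs medium and against BMP4. No probe passes with BMP4 against -GFs medium.

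The level of each gene was also taken relative to POU5F1, a known marker of undifferentiated ES cells, on the same array. Whether POU5F1 RNA per cell was equal between media was not tested, and its first probe was also detected in PA6 mono-cultures. Relative to the first POU5F1 probe, UTF1 was lower by 0.63 log2 units with FGF2 than in -GFs medium (-0.63, with -0.67, -0.73 and -0.47 in the sets), and relative to the second probe by 0.80 (-0.80, with -0.71, -0.79 and -0.90). UTF1 was thus lower with FGF2 in every set with either POU5F1 probe as the reference. The 2-sided exact permutation p was 0.1 in both cases, the smallest that 3 arrays against 3 allow, and 0.267 after adjustment over the 24 such ratios. With BMP4, UTF1 relative to the second probe was also lower in every set (-0.21, with -0.16, -0.41 and -0.04, exact p = 0.1). Relative to the first probe it was -0.13 with BMP4, with -0.08, -0.35 and 0.02 in the sets (exact p = 0.5). With FGF2, DPPA4 relative to POU5F1 changed by -0.14 and -0.31 (exact p = 0.4 and 0.2). SOX2 with FGF2 was higher relative to POU5F1 by 0.55 for the first probe and 0.37 for the second (exact p = 0.1 and 0.3). SALL4 with FGF2 was higher by 0.33 and 0.15 (exact p = 0.1 and 0.5). Relative to the first probe both were higher in all 3 sets, and 0.1 was again the smallest p possible (0.267 after adjustment). Relative to the second probe SALL4 was higher in all 3 sets, whereas SOX2 gave 0.49, 0.88 and -0.25. For the stromal markers the median change of the 14 was -0.38 with FGF2 and -0.32 with BMP4, 1 of 14 was called lower in each case (THY1, -1.08, and COL3A1, -1.16), and their summed level in co-cultures was 16.60 to 17.07 in -GFs medium, 16.52 to 16.76 with FGF2 and 16.55 to 16.86 with BMP4. Among the neural markers ZIC1 was called lower with BMP4 (-3.23, limma adjusted p = 0.0605). Of 6 trophoblast markers 3 were tested, all undetected in PA6 cells, whereas CDX2, ELF5 and HAND1 were not tested. TFAP2C, which germ cells also express, was called higher with FGF2 (1.48) and with BMP4 (1.26). KRT8 was called higher with BMP4 (1.47), and KRT18 was not called. The log2 sum of the 3 was 11.28 to 12.19 in -GFs medium, 12.75 to 12.83 with FGF2 and 12.72 to 13.39 with BMP4. With FGF2 the median change of the 3 was -0.13 and the lowest -0.71, so KRT8 and KRT18 were not higher. With BMP4 the lowest change of the 3 was 1.10. Between FGF2 and BMP4, 2 of the 3 were called lower with FGF2, beside 1.03% of all genes. The log2 sum of 5 endothelial markers was 9.62 to 10.40 in -GFs medium, 10.53 to 11.08 with FGF2 and 10.62 to 11.24 with BMP4. For 3 germ cell markers it was 10.80 to 11.70, 11.47 to 11.61 and 11.77 to 12.46 in the same order. In limma's fit 1 endothelial marker was called higher with BMP4 (0.31% of all genes) and 1 germ cell marker with FGF2 (2.14%). Of the mesoderm and endoderm markers tested, 0 were called with either factor. The part of RNA from cells with any of these markers in the changes of the 5 genes was not tested.

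Many genes that distinguish the naive from the primed state had larger changes with FGF2 than any of the 5 factors. Across the 5, the median change with FGF2 was -0.10, against -0.01 over all genes. Of 18 further genes listed as shared by both states, 15 were tested, with a median of -0.02. FGF2 raised 1 of the 15, MYBL2, a cell cycle factor (1.003, SE 0.211, limma adjusted p = 0.00819), and lowered 1, LIN28A, an RNA-binding protein that blocks let-7 maturation (-1.63, SE 0.172, limma adjusted p = 2.34e-05; LIN28 on the array). The MYBL2 change stood at the fold threshold and was no longer called without -GFs replicate 2 or without FGF2 replicate 1, which left 0 genes called higher. Without -GFs replicate 1 or FGF2 replicate 2 the count was 2, with TDGF1, a Nodal co-receptor, added. DNMT3L, a cofactor of DNA methylation, was at -0.94 (limma adjusted p = 0.0821), short of the fold threshold. It joined LIN28A, making 2 genes called lower, without -GFs replicate 3, FGF2 replicate 1 or FGF2 replicate 2.

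Of 16 genes listed as naive, 14 were tested and 10 rose with FGF2, beside 2.14% of all genes, with a median over the 14 of 1.35. The largest changes were in the transcription factors TBX3 (2.75), TFCP2L1 (2.38, TCFCP2L1 on the array), KLF4 (1.80), ESRRB (1.58) and KLF5 (1.52) and in TCL1 (1.56), a cofactor of the kinase AKT, with limma adjusted p from 1.08e-06 to 0.000817. Leaving out 1 array at a time kept 8 to 10 of these calls, and those lost were NANOG and ZFP42. Of 14 genes listed as primed, 12 were tested and 7 fell, beside 1.2% of all genes, with a median of -2.20. They were the growth factor FGF5 (-4.17), the kinase PIM2 (-3.10), the transcription factors POU3F1 (-3.01), LEF1 (-2.57) and OTX2 (-2.51), the DNA methyltransferase DNMT3B (-2.20) and FGF15 (-2.20), with limma adjusted p from 1.28e-07 to 0.000334. FGF5, PIM2 and LEF1 were detected on fewer than 3 of the FGF2 arrays. These lists, like the 5 genes, were drawn up with results of these data in view, so their counts describe the arrays and are no independent support.

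With BMP4 the shared list gave 0 of 15 called in limma's fit (median 0.06), the naive list 1 of 14, TBX3 (1.13, limma adjusted p = 0.02, median 0.71), and the primed list 0 of 12 (median -0.48). Of all genes, 0.31% were called higher and 0.45% lower. At the adjusted p alone, which 1.7% of all genes passed, the naive gene NR5A2 passed as well (0.78, limma adjusted p = 0.0735). So did the primed genes DNMT3B (-0.59, limma adjusted p = 0.0365) and POU3F1 (-0.92, limma adjusted p = 0.0815). Fitted with replicate numbers as a block, 1 primed gene was called lower with BMP4, SOX3 (-1.17, limma adjusted p = 0.00794). In that fit 1 was called higher, T, the mesoderm factor brachyury (1.43, limma adjusted p = 0.00171), beside 1.31% of all genes called in either direction. Both were dim: T was detected on 2 of 3 BMP4 and 1 of 3 -GFs arrays, and SOX3 on 2 of 3 BMP4 arrays. With the block, further naive genes had a limma adjusted p below 0.1, as 6.38% of all genes did, without reaching the fold threshold. Among them were NR5A2 (0.00438), TFCP2L1 (0.0259), ESRRB (0.0292) and TCL1 (0.0314). The single naive call was lost without -GFs replicate 2 or without BMP4 replicate 1, and rose to 3 without -GFs replicate 3. Between FGF2 and BMP4, 1 of the 15 shared genes was lower with FGF2, LIN28A (-1.35, limma adjusted p = 0.000216), 3 of 14 naive genes were higher (KLF4, 1.71, TBX3, 1.62, and TFCP2L1, 1.39), and the 7 primed genes named above were lower. Of all genes, 1.82% were called higher and 1.03% lower in this comparison.

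**Figure D4:**
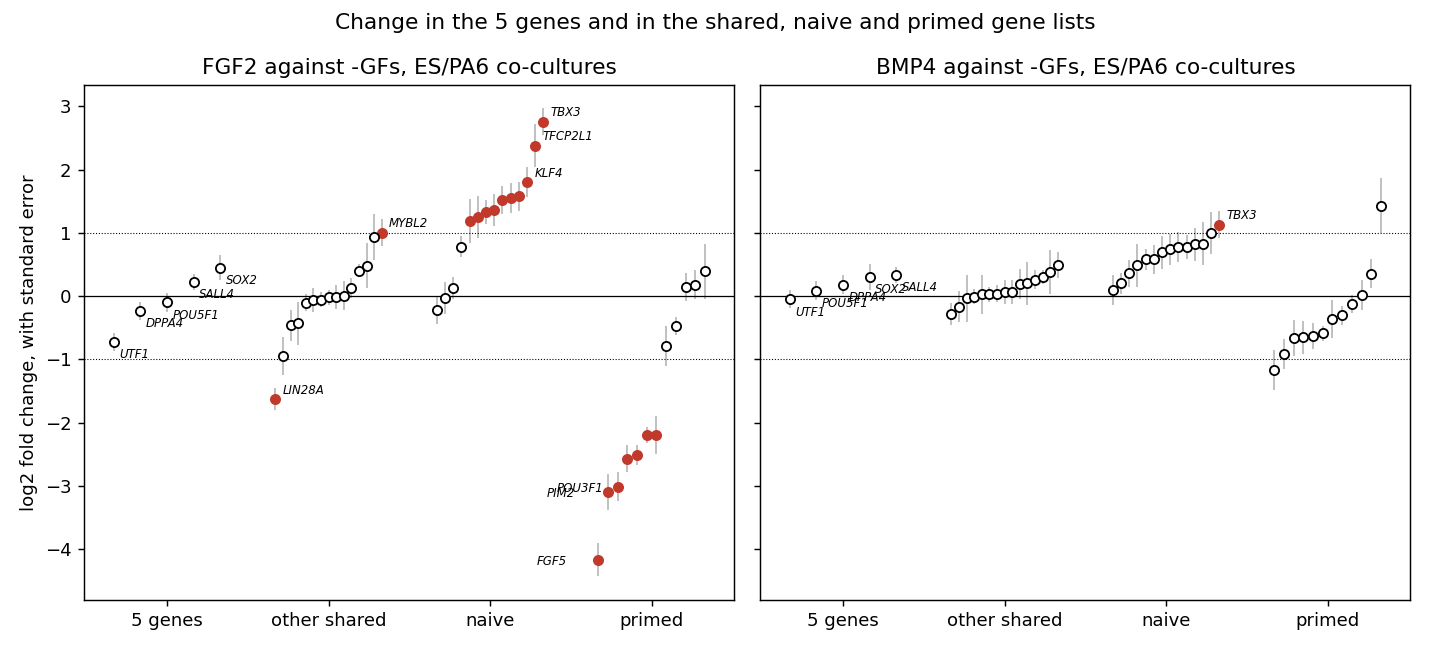
Log2 fold change with its standard error for the 5 genes and for the genes of the shared, naive and primed lists, with FGF2 (left) and BMP4 (right) against -GFs medium in ES/PA6 co-cultures. Red points passed both thresholds, dotted lines mark a log2 change of 1 in either direction, and the 3 called genes with the largest change per list are named. The 5 genes lie between -0.73 and 0.45 with FGF2, whereas 10 naive genes are above 1 and 7 primed genes below -2.

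The genes whose profiles over the 18 arrays lay nearest to each factor were found by the root mean square difference of centred log2 values. UTF1 was nearest to GDF3, a TGF-beta family ligand of pluripotent cells (0.27), and PLA2G1B (0.27). POU5F1 was nearest to ETL4 (0.22), KCNK5 (0.25) and FMR1NB (0.26). SOX2 was nearest to COX6B2 (0.20), GPX3 (0.20) and 1810013D10RIK (0.22). SALL4 was nearest to RPS4Y2 (0.25), TEX19.1 (0.31) and E130012A19RIK (0.31), and DPPA4 to BEX4 (0.24), RPS4Y2 (0.32) and FXYD6 (0.38). The 18 arrays include the step between co-cultures and mono-cultures, which for the 5 genes was larger than any difference between media. GDF3 itself changed by -0.07 with FGF2 (limma adjusted p = 0.918), against -0.73 for UTF1.

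In PA6 mono-cultures, which hold no ES cells, the growth factors brought none of the 5 genes to detection beyond the one POU5F1 probe. That probe read 6.59, 6.88 and 7.09 in -GFs medium, 6.80, 6.86 and 7.18 with FGF2, and 6.97, 7.41 and 7.18 with BMP4. The groups overlapped, and the changes were 0.09 with FGF2 (limma adjusted p = 0.802) and 0.33 with BMP4 (limma adjusted p = 0.383). None of the 5 genes (0 of 5) was called in either comparison, beside 5.27% of all genes with FGF2 and 1.41% with BMP4; 1 of 5 had an unadjusted p below 0.05 with FGF2, beside 26% of all genes, and 2 of 5 with BMP4, beside 12.6%. At the adjusted p alone 1 of 5 passed with FGF2, SALL4, at intensities below detection, beside 18.7% of all genes. The change with FGF2 was also compared between the culture types. At both thresholds 0 of 5 differed in limma's fit, beside 7.39% of all genes, and at the adjusted p alone 2 of 5, UTF1 and SALL4, beside 15%. As neither was detected in mono-cultures, this sets a change in co-cultures against signals at background. For the change with BMP4 the count was 0 of 5, beside 0.559% of all genes.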

How the data were processed

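RNA was hybridised to MouseWG-6 v2.0 BeadChips (Illumina). Groups, replicates and doses were taken from the labels, in which each biological replicate has 1 well per condition. For slide cultures the methods give less BMP4 than the labels. The authors read the arrays with GenomeStudio 2011.01. They deposited non-normalized intensity values with a detection p-value per probe and array, and 5 stray lines at the end of the deposited table (in the unit check listed as other values) were left out. The genome build of the probes is not given in the sources used here, and the probes' sequences were not used here.

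Intensities were background corrected and quantile normalized by neqc (offset 16) in limma 3.58.1, R 4.3.3. The offset understates changes of dim genes. Probes detected (p under 0.05) on 3 or more of the 18 arrays entered the analysis (22987), and per gene the probe with the largest mean was fitted (16446 genes). A limma fit of 6 group means gave 10 comparisons, with p-values adjusted over all genes. Genes were called at an adjusted p below 0.1 and an absolute log2 fold change over 1, as in the study's methods. With 3 arrays per group, their number limits the precision. For a gene detected on 0 arrays of a group, the fold is a bound against the higher of its own signal and the lowest signal among detected probes of each array, averaged on the log2 scale.

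Named are the 5 factors at every probe, the called genes of the shared, naive and primed lists with the largest changes (up to 6 per list and comparison with -GFs medium), and the 3 genes nearest each factor (1 of them is not reported here); FGF15, DNMT3L and GDF3's change were added after their values were seen. The 5 factors and all lists were chosen with earlier results of these data known. Replicate numbers marked paired co-cultures: same-numbered arrays deviated together in all 9 pairs of co-culture groups (r 0.325 to 0.521 across genes), less so in mono-cultures (0.0628 to 0.164). The fit was tested on simulated data. Alternatives covered normalization, filters, probe choice, fit, thresholds, the replicate block and each array left out.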

Additional observations from a re-analysis of the deposited data

Results flagged for a closer look

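The change with FGF2 was set against that in the other culture type, and limma's adjusted p for the difference was below 0.1 for 2 of the 5 genes, beside 15% of all genes. Neither was detected in mono-cultures, so the difference does not compare the responses of 2 expressing cultures. For UTF1 the change with FGF2 was lower in ES/PA6 co-cultures than in PA6 mono-cultures by 0.71 log2 units (-0.71, SE 0.2, 95% interval -1.13 to -0.28, limma adjusted p = 0.0343). The change was -0.73 in co-cultures and -0.02 in mono-cultures, where UTF1 was not detected. For SALL4 the difference was 0.68 (0.675213 before rounding, SE 0.181, limma adjusted p = 0.0257), from 0.23 in co-cultures and -0.45 in mono-cultures. The SALL4 probe was detected on 0 of the 9 mono-culture arrays, so the -0.45 is a difference between signals at background, and it passed limma's test there (adjusted p = 0.0265) without a detected transcript. Neither gene passed the threshold on fold change. For BMP4 none of the 5 genes (0 of 5) passed in limma's fit, and 1 had an unadjusted p below 0.05, beside 9.74% of all genes. That gene was SALL4 (0.68, limma adjusted p = 0.146), whose adjusted p was 0.0615 with the replicate block, again against undetected signals.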

How the results depend on the processing

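The number of the 5 genes called in the comparisons of media was 0 in limma's fit, and it stayed 0 under every alternative but the removal of the fold threshold. Without that threshold it was 1 for FGF2 against -GFs medium in co-cultures (UTF1), 1 for FGF2 against BMP4 (UTF1), 1 for FGF2 in PA6 mono-cultures (SALL4, not detected there) and 2 for the difference of the FGF2 effect between culture types (UTF1 and SALL4). Leaving out 1 array at a time gave 0 to 0 for these comparisons and 5 to 5 for ES/PA6 against PA6 cultures. With only probes detected on all 18 arrays, POU5F1 alone was tested and the latter count was 1 in each of the 3 media. With the replicate number as a block, 0 of 5 were called in the comparisons of media and 5 of 5 in ES/PA6 against PA6 cultures, so the pairing changed no call of the 5 genes at both thresholds; the UTF1 adjusted p was then 0.00233 for FGF2 against -GFs medium and 0.00433 against BMP4.

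Changes near 0 turned sign under 3 alternatives, besides the second probes of POU5F1 (0.08) and SALL4 (-0.04) with FGF2, which differ in sign from the first. SALL4 between FGF2 and BMP4 was 0.0617 with median scaling. UTF1 with BMP4 ranged from -0.166 to 0.0571 as 1 array was left out at a time, above 0 without -GFs replicate 1. POU5F1 with BMP4 ranged from -0.0135, without -GFs replicate 2, to 0.151. The causes were not tested. Alternatives for the gene lists (each array left out, median scaling) were chosen after seeing the data. The 3 arrays per group and the mixed RNA of the co-cultures limit all comparisons, and 4 of the 5 genes have only a bound in PA6 cells.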
